A study of Mus musculus with 6 samples.

Results

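Effector memory CD4+ T cells sorted from the spleens of wild-type mice were described here by the absolute levels of their transcripts. The 3 libraries labelled WT1, WT2 and WT3 were taken by their group label from a series of 6; the other 3, from mice lacking Il1rn, the gene of the interleukin-1 receptor antagonist, were not analysed here. No agent, transgene or Cre is named for the wild-type group. The labels name neither the strain, age and sex of the mice, nor the surface markers of the sort, nor whether the 3 samples came from separate animals, so the standard deviations (SD) below measure only how these 3 libraries differ, which may be technical variation. With 1 group there is no contrast and no test.

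Effector memory helper cells are T cells that have met antigen before, have left the resting state of naive cells and can release cytokines quickly on a second encounter. They recognise antigen through the T cell receptor, whose alpha and beta chains bind peptide while the CD3 chains carry the signal inward and CD4 holds the kinase Lck close. Their helper type is set by lineage regulators such as Tbx21 (T-bet, type 1), Gata3 (type 2), Bcl6 (follicular helper) and Foxp3 (regulatory), and is read out in the cytokines they make.

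The deposited values are estimated counts per gene. They were rounded and divided by the library total to give CPM, the usual scaling of counts to a common total, which is used here for the spread of a gene over libraries, and divided by exon length as well to give TPM, which is used for the order of genes within a library. Library totals were 17677217 counts in WT1, 16883997 in WT2 and 14102183 in WT3, so 1 CPM stood for 14.1 to 17.7 counts. The level allowed by a count of 0, set at 3 counts, lay between 0.170 and 0.213 CPM; such limits cover counting error only. Mitochondrially encoded genes took 5.68 to 8.92% of counts and ribosomal protein genes 5.11 to 7.29%, and both shares were lowest in WT1 and highest in WT3.

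Of all genes in the table, 11162 reached 1 CPM in all 3 libraries, among them 10708 of 21782 protein-coding genes, or 49.2%. The 16 T cell lists hold 289 different genes, of which 254 (87.9%) reached that level and 5 had no count in any library. By mean TPM, 63 of the 289 stood among the 500 highest protein-coding genes, a place that took 189 TPM. The lists share members, and they were chosen with results of these data known, so their share says what these cells express and is not a test.

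The genes that define a CD4 T cell were high in every library. Cd4, the co-receptor for class II molecules, had 1251, 933 and 966 CPM in WT1, WT2 and WT3, a mean of 1050 ± 175 CPM (SD, n = 3). Its 713 TPM placed it at rank 124 of the protein-coding genes. Cd3e, a signalling chain of the receptor, had 398, 300 and 277 CPM, and was highest in WT1. Cd44, the hyaluronan receptor that memory cells carry, had 288, 238 and 248 CPM and 104 TPM, at rank 1036. All of these markers lay well above the 1 CPM used as the level of detection.

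The markers of helper function separated less evenly. Ifng, which encodes interferon gamma, had 174, 152 and 174 CPM, a mean of 167 ± 13.0 CPM (SD, n = 3), and its 350 TPM stood at rank 248, above Cd3e. Foxp3, the defining factor of regulatory T cells, had 107, 109 and 60.0 CPM in WT1, WT2 and WT3 and 55.4 TPM. WT3 thus held the lowest Foxp3 while WT1 and WT2 were alike. In bulk RNA such as this, fewer cells of a type and less RNA per cell cannot be told apart.

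Genes that naive and central memory cells express were present beside Cd44. Ccr7, which guides T cells into lymph nodes, had 208, 269 and 135 CPM and 284 TPM, at rank 320, and was lowest in WT3. Il7r, the interleukin-7 receptor that memory and naive T cells use to survive, had 824, 996 and 911 CPM. A transcript level does not give the amount of protein at the cell surface, by which cells are sorted.

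**Figure D1:**
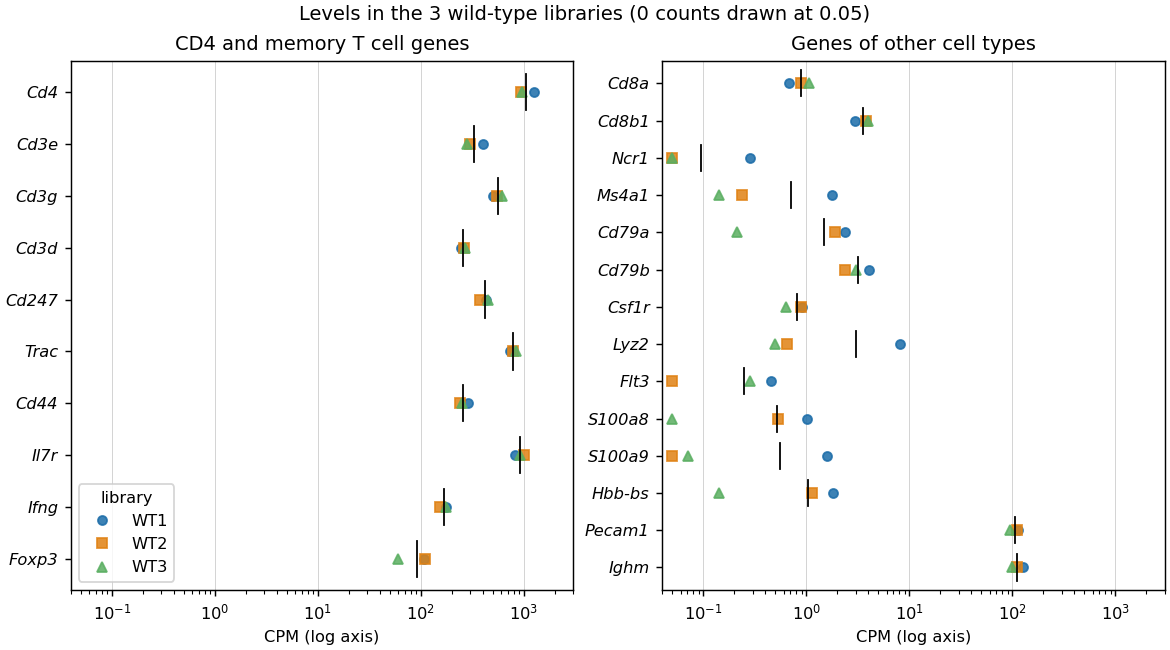
CPM on a log axis in the 3 wild-type libraries for genes of CD4 and memory T cells (left) and of other cell types (right); each symbol is 1 library, the black line is the mean and a count of 0 is drawn at 0.05. The T cell genes lie at 60.0 CPM or above, while in the right panel only Pecam1 and Ighm come near 100 CPM in all 3 libraries.

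Genes that define other blood and spleen cells were at or near 0 with a few exceptions. Cd8a, the co-receptor of the other main T cell class, averaged 0.877 CPM, and Cd4 exceeded it in TPM by 1662, 947 and 819 times in WT1, WT2 and WT3. The 2 CD8 T cell markers summed to 3.62, 4.68 and 5.03 CPM, and the 5 natural killer markers to 1.19, 3.44 and 1.35 CPM, with 3 of those 5 at 0 in all libraries. The 12 neutrophil markers summed to 7.35, 5.69 and 4.11 CPM, the 6 erythroid markers to 5.09, 3.85 and 3.12 CPM and the 4 platelet markers to 3.51, 1.95 and 1.91 CPM. Of the 12 neutrophil markers 1 reached 1 CPM in all 3 libraries, and Ngp, Elane and Ly6g were at 0 in each.

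WT1 carried more of some of these transcripts than the other two libraries. Lyz2, a lysozyme of macrophages and neutrophils, had 8.03, 0.652 and 0.496 CPM, and Jchain, the joining chain of secreted antibodies, had 7.75, 0.415 and 1.49 CPM. The 10 macrophage and monocyte markers together came to 18.0, 13.5 and 12.3 CPM, with C1qa and C1qb at 0 in all 3. Lyz2 alone put that sum highest in WT1. Of the others, Cd68 had 3.28, 6.10 and 3.90 CPM and Itgam 1.19, 2.55 and 2.06 CPM, both lowest in WT1. Csf1r, with 0.905, 0.888 and 0.638 CPM, was highest there. The 3 plasma cell markers summed to 7.92, 0.770 and 1.49 CPM, most of it Jchain. The 10 B cell markers summed to 162, 129 and 115 CPM, of which Ighm, the heavy chain constant gene of IgM, made up 127, 111 and 98.2 CPM. The 3 of the 10 at 1 CPM or more in every library were Ighm, Cd22 and Cd79b. Cd22 had 20.3, 11.3 and 11.8 CPM and Cd79b 4.02, 2.37 and 3.05 CPM. The others were below 1 CPM in at least 1 library, among them Ms4a1, Cd79a and Pax5.

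A few markers of other lineages stood high in all libraries without the rest of their list. Pecam1 (CD31), an adhesion molecule of endothelium and platelets that leukocytes carry too, had 113, 110 and 94.5 CPM of the 116, 112 and 96.9 CPM of the 6 stromal and endothelial markers. The 7 dendritic cell markers summed to 35.1, 37.7 and 41.9 CPM, mostly Bst2, an interferon-induced gene that many lymphocytes express, while Cd209a and Clec9a were at 0. The gamma delta T cell markers differed from these lists: 5 of the 6 reached 1 CPM in all 3 libraries, and Trdv4 had no count. The 6 summed to 47.5, 46.3 and 59.1 CPM. Some of the gamma constant genes are similar copies, between which the authors' counting may have divided reads.

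The 8 genes of the receptor complex all stood among the 500 highest protein-coding genes. The constant genes led: Trbc2 and Trbc1, the alternative beta chain constants, averaged 3696 and 2150 TPM, and Trac, the alpha constant, 2262 TPM. Trbc2 had 826, 878 and 1147 CPM, so it was highest in WT3. Both beta constants are near-identical in their coding parts, so how their shared reads were divided bears on the ratio of Trbc2 to Trbc1, which was 1.83, 1.55 and 1.80 in the 3 libraries.

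Among the signalling chains, Cd3g came first with 497, 545 and 618 CPM and 457 TPM, followed by Cd3d with 242, 260 and 267 CPM and 383 TPM. Cd3e, at 219 TPM, and Cd247 (the zeta chain), at 212 TPM, overlapped in their ranges over libraries. Ranges of neighbours in the order of TPM were apart for 5 of 7 pairs in this complex. Within a library Cd3g exceeded Cd3e 1.56 times in WT1, 2.27 times in WT2 and 2.78 times in WT3, and Cd3d exceeded Cd3e 1.37, 1.95 and 2.17 times, so the balance of CD3 transcripts was not the same in the 3 libraries. Of the 8 members, 6 were highest in WT3, against 26.2% of protein-coding genes; the count was also 6 when library sizes were rescaled by TMM (a trimmed mean of gene ratios), against 35.2%.

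The 3 CD3 genes lie side by side on chromosome 9 of GRCm38, Cd3g from 44969572 to 44980431 on the minus strand, Cd3d from 44981786 to 44987339 on the plus strand and Cd3e from 44998740 to 45009627 on the minus strand, a span of 40.1 kb that holds no other protein-coding gene of the table. Their promoters are shown because the neighbours sit at different levels; they are RefSeq sequences of GRCm38.p6 in the direction of transcription, from 250 bases before to 50 after the start. The windows are chr9:44980382-44980681 (minus strand) for Cd3g, chr9:44981536-44981835 (plus strand) for Cd3d and chr9:45009562-45009861 (minus strand) for Cd3e. Capitals mark GGAAGT, a core of ETS factor motifs, on either strand.
Cd3g: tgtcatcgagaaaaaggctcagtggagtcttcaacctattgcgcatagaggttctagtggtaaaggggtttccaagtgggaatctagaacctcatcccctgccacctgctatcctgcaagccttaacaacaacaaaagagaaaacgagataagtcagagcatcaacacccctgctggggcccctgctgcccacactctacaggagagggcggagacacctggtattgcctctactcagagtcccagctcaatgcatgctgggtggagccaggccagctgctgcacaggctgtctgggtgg
Cd3d: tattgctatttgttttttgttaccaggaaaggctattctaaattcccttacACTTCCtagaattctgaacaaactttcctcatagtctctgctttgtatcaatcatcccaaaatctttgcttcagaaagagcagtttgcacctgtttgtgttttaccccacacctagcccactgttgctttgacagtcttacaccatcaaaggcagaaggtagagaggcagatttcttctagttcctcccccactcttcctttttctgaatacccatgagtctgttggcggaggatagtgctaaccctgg
Cd3e: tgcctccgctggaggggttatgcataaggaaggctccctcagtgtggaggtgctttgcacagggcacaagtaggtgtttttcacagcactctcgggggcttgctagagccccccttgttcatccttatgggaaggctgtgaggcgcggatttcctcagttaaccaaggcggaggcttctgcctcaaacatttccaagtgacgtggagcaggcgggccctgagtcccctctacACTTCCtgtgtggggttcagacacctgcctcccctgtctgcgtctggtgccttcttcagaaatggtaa
The motif occurs in the windows of Cd3d and Cd3e and not in that of Cd3g, the highest of the 3. Of the 4 receptor complex genes that could be matched, 3 held it in any of their promoters (Cd247, Cd3d and Cd3e). Of all 32851 single promoters of the same length, 23.8% held it. The first share counts genes and the second promoters, so they are not like for like. Such a match describes letters, not binding.

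The kinases and adaptors that carry the receptor signal were expressed throughout, and all 23 reached 1 CPM in every library. Lck, the kinase that phosphorylates the CD3 chains, led with 837, 715 and 795 CPM and 727 TPM, at rank 122. Lat, the membrane adaptor that gathers signalling proteins, had 571, 587 and 537 CPM and 556 TPM. Ptprc (CD45), the phosphatase that keeps Lck active, had 3013, 3103 and 3236 CPM, the highest CPM of the list, and 462 TPM once its long exons were counted; by the length of its longest transcript alone its rank was 88 in place of 185.

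Further along the pathway, Fyn, an Src family kinase like Lck, had 675, 504 and 492 CPM, and Lcp2 (SLP-76), the adaptor that partners Lat, 533, 421 and 426 CPM. The greatest spread of the list was in Nfatc1, a transcription factor freed by calcium signals, with 387, 231 and 233 CPM, and in Cblb, a ubiquitin ligase that restrains signalling, with 116, 129 and 79.2 CPM. WT1 stood above the other two for Nfatc1. WT1 was the highest library for 17 of the 23, beside 52.4% of protein-coding genes; with TMM scaling the count was 14 of 23 beside 38.5%.

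Integrins led the memory and homing surface genes, of which 20 of 22 reached 1 CPM in all libraries. Itgb1, the beta 1 chain shared by the VLA integrins, had 1632, 1405 and 1767 CPM and 1064 TPM, at rank 82. Itgb7, which pairs with alpha 4 for homing to gut, had 726, 617 and 553 CPM, and Itga4 itself 1568, 1324 and 1147 CPM. Itgal and Itgb2, the chains of LFA-1, had 1105, 789 and 785 CPM and 639, 489 and 491 CPM. Cd52, a small glycoprotein of lymphocyte surfaces, had 363, 424 and 592 CPM and, on its short exons, 1038 TPM.

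Some surface genes often used to grade memory cells were low. Klrg1, a receptor of strongly differentiated effector cells, had 7.13, 9.89 and 14.5 CPM. Ly6a (Sca-1) had 5.26, 6.04 and 8.86 CPM. Ly6c1 and Ly6c2, near-identical neighbours that encode Ly6C, had 0.113, 0.652 and 0.284 CPM and 1.64, 0.237 and 1.28 CPM and were the 2 members under 1 CPM in at least 1 library. Cd69, an early activation antigen that also holds cells in tissue, was high, with 368, 502 and 414 CPM.

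All 17 naive and central memory genes reached 1 CPM in every library. Tcf7, which encodes TCF-1 and supports self-renewing T cells, had 1203, 922 and 746 CPM and 1005 TPM, at rank 92. Klf2, a regulator of exit from tissue, had 607, 598 and 365 CPM, and its target S1pr1, the receptor by which T cells follow sphingosine phosphate out of lymphoid organs, 347, 416 and 217 CPM. WT3 was lowest for all of these, as for Ccr7 above. Lef1, the partner of TCF-1, lay at 22.7 TPM and Id3 at 16.5 TPM, so the list covered a wide range of levels.

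WT3 was the lowest library for 13 of the 17, beside 48.2% of protein-coding genes; with TMM scaling the count was 12 of 17 beside 38.6%. Il7r, Bcl2 and Dapl1 were among the exceptions. Foxp3, which is not on that list, was lowest in WT3 too.

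Of the 32 lineage regulators, 31 reached 1 CPM in all libraries, and Ascl2, an early follicular helper factor, was the exception with 1.02, 0.296 and 0 CPM. Below Tcf7 came Id2, an inhibitor of E proteins that favours effector cells, with 353, 347 and 370 CPM and 397 TPM. Bhlhe40, a factor that permits cytokine production, had 309, 382 and 212 CPM and 176 TPM. The TPM ranges of these 3 were apart from each other, but those of the next neighbours were not, and 28 of the 30 neighbouring pairs overlapped in all.

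Signal transducers of cytokine receptors stood lower. Stat6, activated by interleukin-4, averaged 136 ± 22.2 TPM and Stat4, activated by interleukin-12, 127 ± 7.70 TPM (SD, n = 3 each), and they do not differ beyond their spread. Stat3, used by interleukins 6 and 21, was at 57.7 TPM.

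The regulators that name the helper types stood in the order Gata3, Foxp3, Tbx21, Bcl6 by mean TPM. Gata3 had 167, 134 and 103 CPM and 93.2 TPM. Tbx21 had 31.8, 37.0 and 19.4 CPM and 32.5 TPM, and its ratio to Gata3 in TPM was 0.305, 0.441 and 0.301 in the 3 libraries. Gata3 exceeded Tbx21 in each library, and Ifng, the signature cytokine of type 1 cells, exceeded Il4, that of type 2 cells.

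Bcl6 had 26.6, 13.9 and 23.2 CPM and 8.65 TPM, with WT2 lowest. Rora, a nuclear receptor of type 17 and type 2 responses, had 124, 158 and 120 CPM. Maf, a factor of follicular helper and interleukin-10 producing cells, had 342, 264 and 245 CPM.

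The highest spread among the regulators, for members with a mean of at least 5 CPM, was in Tox2, a follicular helper factor, with 29.3, 11.4 and 16.8 CPM, and in Eomes, a T-box factor of cytotoxic memory cells, with 11.7, 6.04 and 5.81 CPM. Both were highest in WT1. Their coefficients of variation (CV, the SD as a percent of the mean) were 48.0% and 42.2%. Irf4, which rises with receptor signal strength, had 104, 106 and 59.1 CPM and followed the order of Foxp3.

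**Figure D2:**
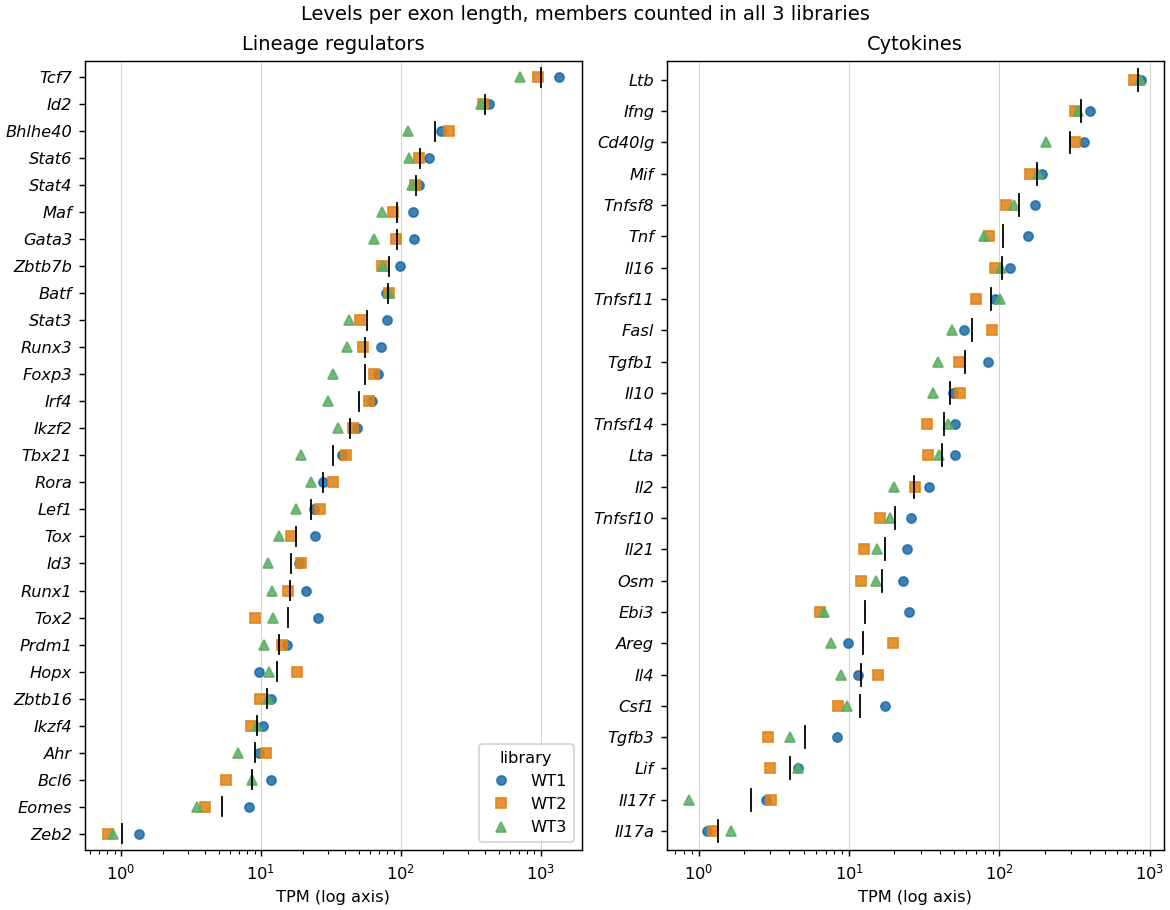
TPM on a log axis of the lineage regulators (left) and cytokine genes (right) with a count in all 3 wild-type libraries, a few of them left out, ordered by the mean (black line); each symbol is 1 library. Levels run over orders of magnitude within each list, from Tcf7 at 1005 to Zeb2 at 1.01 TPM and from Ltb at 839 to Il17a at 1.34 TPM, while most neighbours in the order overlap.

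Cytokine genes covered the widest range, with 23 of 34 at 1 CPM or more in all libraries. Ltb, which encodes lymphotoxin beta, a membrane ligand needed to organise lymphoid tissue, led with 449, 433 and 528 CPM and 839 TPM, at rank 106. Ifng came next and was apart from Ltb in its range. Cd40lg, the ligand by which helper cells license B cells and dendritic cells, had 155, 145 and 102 CPM and 295 TPM, and Mif, a widely expressed cytokine, 48.8, 43.5 and 54.1 CPM and 177 TPM. Tnfsf8 (CD30 ligand), with 221, 153 and 192 CPM, stood at 135 TPM.

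Cytokines of the helper types were lower than Ifng. Tnf had 85.8, 51.4 and 52.2 CPM and 106 TPM. Il10, an inhibitory cytokine, had 21.8, 26.4 and 19.2 CPM, and Il2, the T cell growth factor, 13.2, 11.6 and 9.22 CPM. Il21, the helper cytokine for germinal centre B cells, had 43.2, 24.4 and 32.4 CPM and, for its longer exons, 17.4 TPM.

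Il4, the type 2 cytokine, had 4.81, 7.05 and 4.40 CPM and 12.0 TPM, and the ratio of Ifng to Il4 in TPM was 34.4, 20.4 and 37.4. Il17a rested on 8, 9 and 11 counts, or 0.453, 0.533 and 0.780 CPM, and Il17f had 1.92, 2.25 and 0.709 CPM. The Ifng to Il17a ratio was 349, 257 and 201, and the low counts of Il17a set its precision.

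Il3, Il5, Il9, Il24 and Il12a had no count in any library, which allows at most 0.170, 0.178 and 0.213 CPM in WT1, WT2 and WT3. Il13 had 0.170 CPM in WT1 alone, Il22 0.296 CPM in WT2 alone and Il6 0.0566 CPM in WT1 alone. Csf2 (GM-CSF) averaged 0.146 CPM. With Il17a and Il17f these are the 11 members under 1 CPM in at least 1 library.

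The largest spread among the cytokines with a mean of at least 5 CPM was in Ebi3, a subunit of interleukins 27 and 35, with 9.73, 2.72 and 3.19 CPM, and in Areg, an epidermal growth factor family ligand used in tissue repair, with 4.07, 8.77 and 3.69 CPM. The mean of Ebi3 was 5.22 CPM over 3 libraries and 2.96 CPM without WT1. WT2 was the lowest library for 16 of the 23 cytokines with a mean of at least 5 CPM, beside 29.3% of protein-coding genes; with TMM scaling the count was 15 beside 27.7%.

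Chemokine genes were few. Ccl5, which draws T cells and monocytes and which memory cells keep ready as transcript, had 41.8, 53.6 and 29.4 CPM and 119 TPM. Xcl1, a ligand for cross-presenting dendritic cells, had 2.49, 7.64 and 3.69 CPM, and Cxcl10, an interferon-induced ligand of Cxcr3, 11.0, 7.94 and 7.02 CPM. The other 6 of the 9 fell below 1 CPM in at least 1 library, among them Ccl4 with a mean of 1.31 CPM and Ccl1 with 0.927 CPM. Without WT2 the mean of Ccl4 was 0.871 CPM, and without WT3 that of Ccl1 was 0.397 CPM.

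Cytotoxic genes were present at low levels, led by members that are not specific to killing. Srgn, the proteoglycan that packs granule contents, had 555, 683 and 704 CPM and 796 TPM, at rank 111, and Lamp1, a lysosome membrane protein, 130, 140 and 135 CPM and 137 TPM. Nkg7, a granule membrane protein of cytotoxic and type 1 cells, had 42.3, 36.2 and 54.7 CPM and 131 TPM. Cst7, a cathepsin inhibitor, had 32.0, 20.8 and 36.6 CPM, and Ctsw, a lymphocyte cathepsin, 45.4, 54.1 and 51.6 CPM. Of 21 members, 18 reached 1 CPM in all libraries.

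Among the granzymes, the serine proteases of granules, Gzmk was the highest with 18.9, 14.2 and 20.6 CPM and 34.9 TPM. Gzmb had 1.24, 3.79 and 1.91 CPM, and the ratio of Gzmk to Gzmb in TPM was 15.7, 3.88 and 11.1. Gzma averaged 0.659 CPM and Gzmc 0.346 CPM. Prf1, the pore-forming perforin, had 2.49, 5.27 and 3.19 CPM, and WT2 was thus highest for both Gzmb and Prf1.

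Klrk1 (NKG2D), an activating receptor for stress ligands, had the largest spread of the list with 2.77, 9.42 and 6.59 CPM. WT1 was the lowest library for 8 of 13 cytotoxic members with a mean of at least 5 CPM, beside 22.5% of protein-coding genes; with TMM scaling the count was 9 beside 33.6%. The natural killer markers summed to 1.19, 3.44 and 1.35 CPM and the CD8 T cell markers to 3.62, 4.68 and 5.03 CPM, with WT1 lowest in both sums. Of the gamma delta T cell genes, Tcrg-C1 had 7.07, 12.3 and 12.2 CPM, Tcrg-C2 8.09, 12.3 and 15.7 CPM and Tcrg-C4 14.9, 15.0 and 21.4 CPM, lowest in WT1, while Trdc, the delta chain constant, had 15.3, 3.67 and 8.51 CPM and was highest there. The part of these cells in the result was not tested.

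The cytokine receptors were dominated by chains of the common gamma family. After Il7r, Il2rg, the common gamma chain itself, had 448, 452 and 396 CPM and 494 TPM, and Il2rb, the signalling chain for interleukins 2 and 15, 711, 587 and 533 CPM and 390 TPM. Il27ra had 307, 274 and 300 CPM and 228 TPM. Il2ra (CD25), the chain that gives high affinity for interleukin-2, was lower, with 60.5, 53.9 and 58.9 CPM and 27.5 TPM. Of the 32, 29 reached 1 CPM throughout; Il12rb2, Il23r and Csf2rb did not.

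Ifngr1, the ligand-binding chain of the interferon gamma receptor, had 176, 340 and 176 CPM, with WT2 alone high, and Ifngr2, its partner, 21.7, 21.6 and 18.8 CPM. The largest spread was in Il1r2, a decoy receptor for interleukin-1, with 4.81, 3.14 and 8.44 CPM. Its neighbours on chromosome 1 ranged widely. Il18r1, the interleukin-18 receptor chain of type 1 cells, had 180, 226 and 220 CPM and 117 TPM, Il18rap 53.0, 53.5 and 61.3 CPM, Il1rl1 (the interleukin-33 receptor) 17.8, 19.1 and 18.4 CPM, and Il1r1 3.73, 2.55 and 2.91 CPM. These genes lie between 40074079 and 40551705, a span of 477.6 kb.

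Receptors for moving into, within and out of lymphoid tissue led the chemokine and lipid receptors. Cxcr4, the receptor for the stromal ligand Cxcl12, had 225, 239 and 198 CPM and 333 TPM, above S1pr1 at 295 TPM and Ccr7 at 284 TPM. S1pr4 had 147, 145 and 127 CPM, and Gpr183 (EBI2), which guides cells to the border of the follicle, 134, 198 and 114 CPM. Of the inflammatory receptors, Cxcr3, the marker of type 1 cells, was the highest with 112, 65.8 and 76.2 CPM and 135 TPM.

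By TPM, Cxcr6, a receptor of resident and effector cells, came next among them, with 28.3, 44.8 and 45.0 CPM and 54.8 TPM. Ccr2, a receptor for monocyte-attracting chemokines, had 69.2, 115 and 113 CPM and 39.4 TPM. Cxcr5, which takes cells into follicles, had 45.7, 18.4 and 28.5 CPM and the largest spread of the list, with a CV of 44.8%. Ccr6, the receptor of type 17 cells, had 8.49, 9.95 and 10.8 CPM. Of 20 receptors, 17 reached 1 CPM in all libraries, and 13 of 16 neighbouring pairs overlapped in TPM.

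All 15 costimulatory receptors reached 1 CPM throughout. Cd2, an adhesion and costimulatory receptor, had 214, 217 and 221 CPM and 339 TPM; its CV was 1.43%, and 6.60% with TMM scaling. Cd28, the main costimulatory receptor, had 636, 819 and 601 CPM and 305 TPM, Cd27 177, 151 and 169 CPM, and Cd6 635, 534 and 456 CPM. Icos, the inducible relative of Cd28, had 255, 450 and 256 CPM and 254 TPM. WT2 stood above the other two for Icos, as for Ifngr1.

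Ctla4, the inhibitory counterpart that competes with Cd28 for its ligands, was low by comparison, with 5.03, 5.03 and 4.54 CPM and 5.70 TPM, at rank 8679. The Cd28 to Ctla4 ratio in TPM was 48.0, 61.9 and 50.4. Cd28, Ctla4 and Icos are neighbours on chromosome 1, from 60716800 to 61000320, so that a gene at rank 8679 lies between genes at ranks 300 and 353. Foxp3 exceeded Ctla4 in TPM 10.8, 11.0 and 6.73 times. High Ctla4 is a known trait of regulatory T cells.

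The other inhibitory receptors ranged from Cd96, a nectin family receptor, with 218, 243 and 283 CPM and 306 TPM, and Cd5, a brake on receptor signalling, with 580, 422 and 400 CPM and 261 TPM, to Havcr2 (TIM-3) with 0.962, 0 and 0.142 CPM. Vsir (VISTA) had 307, 311 and 281 CPM, Btla 97.2, 103 and 101 CPM and Tigit 34.1, 36.0 and 28.3 CPM. Pdcd1 (PD-1) had 47.7, 28.1 and 39.6 CPM and 54.5 TPM. Havcr2 and Cd244a were the 2 of 16 under 1 CPM in at least 1 library.

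Lag3, an inhibitory receptor that binds class II molecules, varied most, with 63.0, 16.6 and 29.1 CPM and a CV of 66.2%. Its mean was 36.2 CPM over 3 libraries and 22.9 CPM without WT1. Lag3 lies next to Cd4 on chromosome 6, with both genes between 124864692 and 124911705, and Cd4 was also highest in WT1 but varied far less, with a CV of 16.6%.

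All 18 regulatory T cell genes reached 1 CPM in every library, and several of them are shared with other activated T cells. Izumo1r (folate receptor 4), found on regulatory and follicular helper cells, led with 328, 216 and 300 CPM and 330 TPM. Tnfrsf18 (GITR) had 84.2, 83.4 and 94.5 CPM and 155 TPM, and Tnfrsf4 (OX40), its neighbour on chromosome 4, 63.3, 62.0 and 71.5 CPM and 130 TPM. Capg, an actin-capping protein of effector regulatory cells, had 118, 83.2 and 89.1 CPM. By CPM these 4 were lowest in WT2 and not, as Foxp3, in WT3; with TMM scaling Tnfrsf18 and Tnfrsf4 were lowest in WT1. The list has 17 members with a mean of at least 5 CPM. Of these, 4 followed the order of Foxp3, WT2 over WT1 over WT3, beside 13.5% of protein-coding genes. Foxp3 itself is among the 4 and holds that order by definition. Lowest in WT3 were 6 of the 17, Foxp3 included, beside 48.2%. Both counts were the same with TMM scaling, beside 14.5% and 38.6%.

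Ikzf2 (Helios), often used for regulatory cells of thymic origin, had 190, 194 and 166 CPM and 43.1 TPM, and Nrp1, used for the same purpose, 123, 78.9 and 68.9 CPM. Lrrc32 (GARP), which holds latent transforming growth factor beta on regulatory cells, had 17.7, 20.2 and 10.7 CPM. With Foxp3 and Il10, Ikzf2 and Lrrc32 are the 4 members in that order. Ikzf4 (Eos), a partner of Foxp3, had 20.9, 18.7 and 22.8 CPM.

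Most follicular helper genes were lowest in WT2. Cxcr5 had 45.7, 18.4 and 28.5 CPM in WT1, WT2 and WT3, Bcl6 26.6, 13.9 and 23.2 CPM, Pdcd1 47.7, 28.1 and 39.6 CPM and Il21 43.2, 24.4 and 32.4 CPM, as given above. The same order, WT1 over WT3 over WT2, held for Angptl2, a secreted protein on the list, with 120, 35.2 and 66.7 CPM, and for Sostdc1, a secreted antagonist made by follicular helper cells, with 11.9, 3.26 and 10.1 CPM. Slamf6 and Sh2d1a (SAP), which sustain contact with B cells, were highest in WT3 instead, with 668, 595 and 721 CPM and 48.7, 46.0 and 62.8 CPM.

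In counts, 9 of the 13 follicular helper genes with a mean of at least 5 CPM followed the order WT1 over WT3 over WT2, as did 17.7% of protein-coding genes, and 11 of 13 were lowest in WT2, as were 29.3%. With TMM scaling these counts were 7 of 13 beside 14.3% and 10 of 13 beside 27.7%. Icos was the exception that was highest in WT2. The B cell markers summed to 162, 129 and 115 CPM and the plasma cell markers to 7.92, 0.770 and 1.49 CPM; both sums were highest in WT1, and their part in the result was not tested.

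Immediate early genes, which are switched on within minutes by signals such as those of the T cell receptor, were among the highest transcripts of these libraries. Of 30, 28 reached 1 CPM throughout and 17 stood among the 500 highest protein-coding genes. Junb, an AP-1 subunit, had 2573, 2693 and 2663 CPM and 3120 TPM, at rank 31, and Jund, another subunit, 868, 1025 and 832 CPM and 1482 TPM. Tnfaip3 (A20), which restrains NF-kappaB, had 3337, 4724 and 2602 CPM and 1345 TPM. Klf6, a zinc finger factor, had 1599, 1959 and 1281 CPM, and Nfkbia, the inhibitor of NF-kappaB, 489, 477 and 445 CPM. Fosl1 and Ier3 were the members below 1 CPM in at least 1 library.

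The orphan nuclear receptors and some AP-1 members varied widely. Fosl2, an AP-1 subunit, had 101, 232 and 43.5 CPM, a CV of 77.0%, and Nr4a3, a nuclear receptor induced by receptor signalling, 83.1, 218 and 50.5 CPM, a CV of 75.7%. WT2 alone set these high means: without it, Fosl2 averaged 72.2 in place of 125 CPM and Nr4a3 66.8 in place of 117 CPM. Nr4a1 (Nur77) had 354, 573 and 255 CPM in the same order. Egr1 also held this order, with 179, 209 and 124 CPM. Egr2 and Egr3, which the same signals induce, were highest in WT1 instead, with 26.7, 16.8 and 15.5 CPM and 27.3, 21.2 and 14.0 CPM. Nr4a2, with 24.2, 23.7 and 13.8 CPM, was highest in WT1 by CPM and in WT2 with TMM scaling.

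In counts, 18 of the 28 immediate early genes with a mean of at least 5 CPM were highest in WT2, beside 21.4% of protein-coding genes, and 22 were lowest in WT3, beside 48.2%. With TMM scaling the counts were 21 beside 26.4% and 20 beside 38.6%. The full order WT2 over WT1 over WT3 held for 15 of 28, or 17 with TMM scaling, beside 13.5% and 14.5% of protein-coding genes. Hspa1a and Hspa1b, heat shock genes that are near-identical copies and answer to stress, belong to this list and are counted among the 18. They had 30.4, 54.8 and 31.4 CPM and 78.2, 122 and 63.9 CPM.

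**Figure D3:**
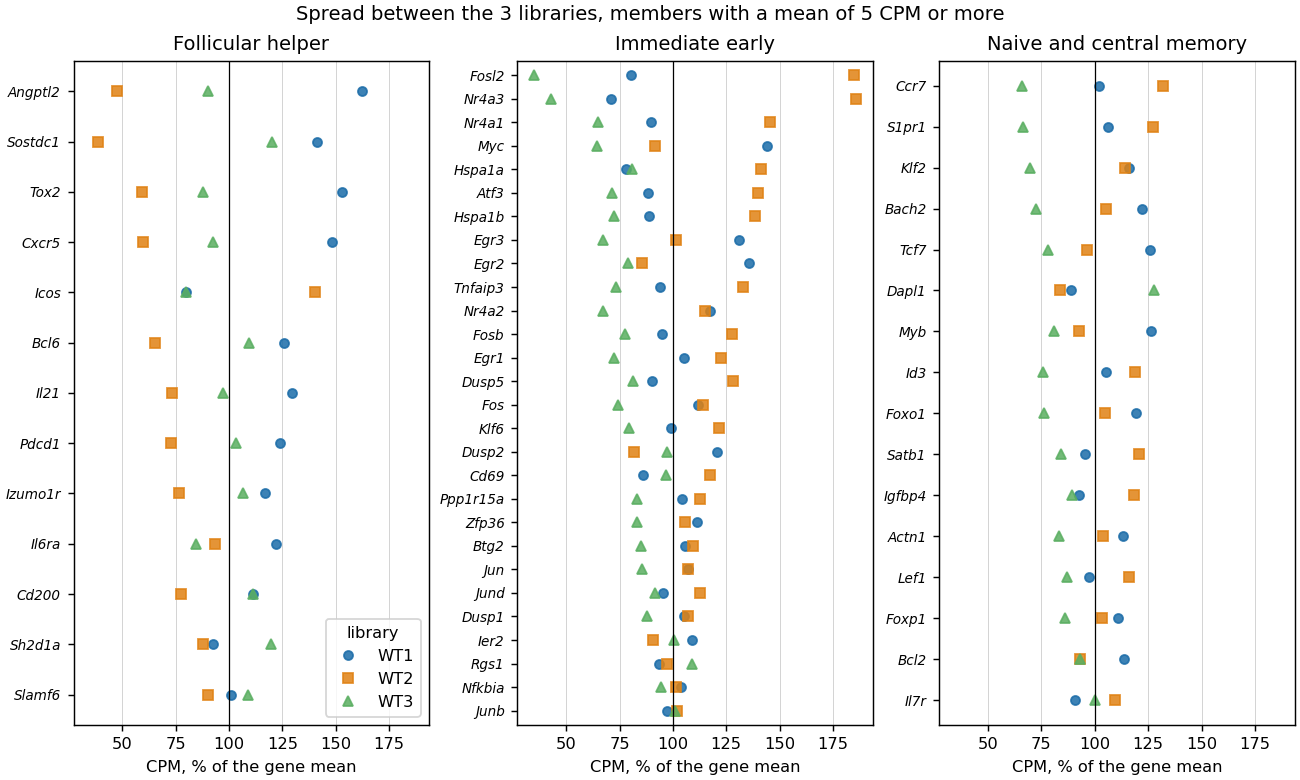
CPM of each library as a percent of the gene's mean, for members of the follicular helper, immediate early and naive and central memory lists with a mean of at least 5 CPM, ordered by spread; each symbol is 1 library and the vertical line marks the mean. WT2 (squares) lies lowest for 11 of 13 follicular helper genes and highest for 18 of 28 immediate early genes, and WT3 (triangles) lies lowest for 13 of 17 naive and central memory genes, of which 16 are drawn.

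Promoters of 3 immediate early genes are shown because they alone among the 23 that could be matched hold the full cyclic AMP response element TGACGTCA, a palindrome bound by CREB family factors. They are Dusp1, a phosphatase that shuts off MAP kinases, with 704, 715 and 587 CPM; Btg2, a brake on proliferation, with 441, 457 and 356 CPM; and Ppp1r15a (GADD34), a stress-induced phosphatase subunit, with 801, 867 and 642 CPM. Sequences are RefSeq, GRCm38.p6, 250 bases before to 50 after the start in the direction of transcription, with the motif in capitals. The windows are chr17:26508423-26508722 (minus strand) for Dusp1, chr1:134079106-134079405 (minus strand) for Btg2 and chr7:45526219-45526518 (minus strand) for Ppp1r15a.
Dusp1: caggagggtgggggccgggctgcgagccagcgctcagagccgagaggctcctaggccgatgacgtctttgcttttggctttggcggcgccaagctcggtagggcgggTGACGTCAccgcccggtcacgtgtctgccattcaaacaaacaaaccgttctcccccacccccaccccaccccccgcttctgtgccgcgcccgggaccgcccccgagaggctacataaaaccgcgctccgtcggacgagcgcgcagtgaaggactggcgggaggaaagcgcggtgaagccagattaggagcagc
Btg2: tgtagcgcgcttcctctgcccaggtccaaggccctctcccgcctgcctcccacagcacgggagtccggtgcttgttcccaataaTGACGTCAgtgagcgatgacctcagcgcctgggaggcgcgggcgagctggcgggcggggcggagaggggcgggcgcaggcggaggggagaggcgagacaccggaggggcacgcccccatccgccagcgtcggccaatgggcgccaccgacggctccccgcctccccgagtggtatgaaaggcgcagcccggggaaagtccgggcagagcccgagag
Ppp1r15a: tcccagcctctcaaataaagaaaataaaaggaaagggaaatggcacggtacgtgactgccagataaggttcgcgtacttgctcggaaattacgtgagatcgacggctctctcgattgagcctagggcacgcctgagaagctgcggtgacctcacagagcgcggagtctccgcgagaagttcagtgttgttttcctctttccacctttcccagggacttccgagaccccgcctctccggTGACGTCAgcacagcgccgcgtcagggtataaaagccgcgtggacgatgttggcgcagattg
These 3 of 23 genes make 13.0%, where a gene counts if any of its promoters holds the element. Of all 32851 single promoters 1.79% hold it, so the shares are not like for like. Counted the same way, the AP-1 motif TGANTCA was found for 1 of the 23 genes (Tnfaip3), beside 7.81% of all promoters. The CArG box of serum response factor was found for 3 (Dusp5, Egr2 and Zfp36), beside 1.63%. The RUNX motif TGTGGT was found for 0 of the 23, beside 16.8%, and GGAAGT for 8, beside 23.8%. For the 4 receptor complex genes above, GGAAGT was the only one of these motifs found. All 3 genes printed stood in the order WT2 over WT1 over WT3. So did 15 of the 28 members of their list with a mean of at least 5 CPM, beside 13.5% of protein-coding genes. The part of the element in this order was not tested.

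Cell cycle genes were mostly low. Pcna, the replication clamp, which also serves DNA repair, had 386, 521 and 492 CPM and 525 TPM, far above the others. Mki67, the proliferation marker, had 70.8, 41.2 and 54.3 CPM and 15.1 TPM. Mcm5 and Mcm2, subunits of the replicative helicase, had 50.1, 42.2 and 36.3 CPM and 53.5, 56.7 and 42.5 CPM, and Stmn1, a microtubule regulator of dividing cells, had 12.3, 6.93 and 7.94 CPM. Rrm2, a subunit of the enzyme that makes deoxynucleotides, varied most, with 7.75, 6.52 and 2.91 CPM. Of the 15, 13 reached 1 CPM in all libraries but 7 reached 5 CPM.

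Genes of the same cluster differed in level in several of the loci chosen for description. In the tumour necrosis factor cluster on chromosome 17, between 35194439 and 35205351, Ltb stood at 839 TPM, Tnf at 106 TPM and Lta, the soluble lymphotoxin, at 41.3 TPM within 10.9 kb. On chromosome 10, Ifng (118441046 to 118445892) stood at 350 TPM and Il22 (118204942 to 118210047) at 0.242 TPM; the span of both holds 8 protein-coding genes of the table. On chromosome 11, in the type 2 cytokine cluster from 53602982 to 53778374, Il4 stood at 12.0 TPM, Il13 at 0.138 TPM and Il5 at 0, while Rad50, a DNA repair gene within the cluster, had 23.7 TPM and Irf1, an interferon regulatory factor at its edge, 269 TPM.

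Further loci were as uneven, or less so. Ccl5 (83525778 to 83530518 on chromosome 11) stood at 119 TPM and Ccl3 (83647844 to 83649355) at 0.732 TPM, in a span with Ccl4 of 6 protein-coding genes. Il2 and Il21, within 112.1 kb on chromosome 3, were nearer to each other at 27.2 and 17.4 TPM. In the chemokine receptor cluster on chromosome 9, from 123678439 to 124147699, Cxcr6 at 54.8 TPM and Ccr2 at 39.4 TPM lay beside Ccr1 at 0.166 TPM and Ccr3 at 0.779 TPM.

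Over all T cell genes, the spread between libraries was wider than counting alone would give. The 237 members with a mean of at least 5 CPM had a median CV of 18.4%, where counting error alone would give a median of 2.51%. The 9419 protein-coding genes over the same minimum had a median CV of 15.2%, where counting alone would give 3.87%. A CV above 30% was found in 43 of the 237 (18.1%), beside 9.32% of protein-coding genes, and a CV below 10% in 44 (18.6%), beside 26.7%. No test was made of this difference, since genes are not replicates.

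The steadiest of the genes named were not all steady under another scaling. Junb had a CV of 2.36%, and 7.22% with TMM scaling, and Itgae (CD103), an integrin of resident and regulatory cells with 47.8, 49.4 and 49.6 CPM, had 1.99% and 7.10%. The median CV of the T cell genes was 17.1% with TMM scaling, and that of all protein-coding genes 14.1%.

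**Figure D4:**
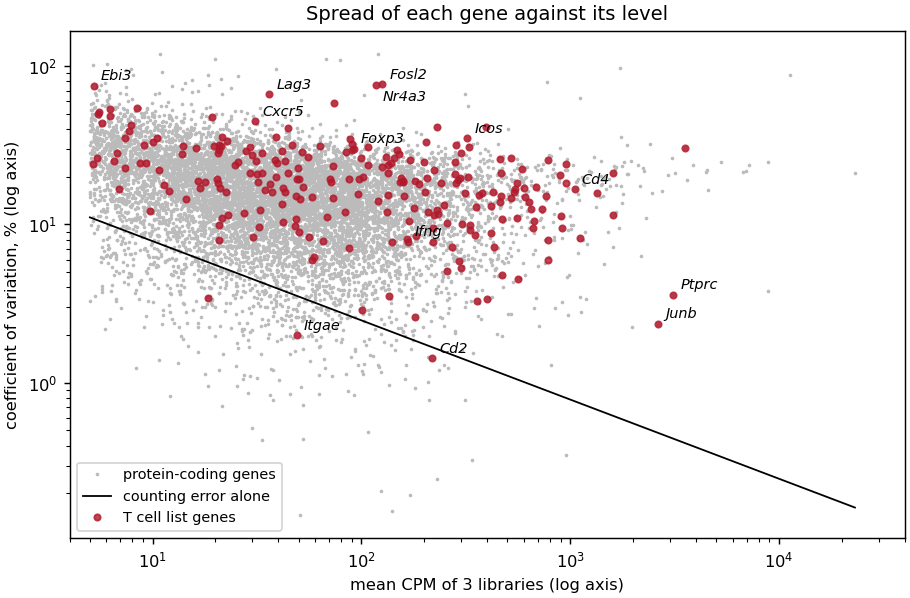
Coefficient of variation over the 3 wild-type libraries (percent, log axis) against mean CPM (log axis) for protein-coding genes (grey) and T cell list genes (red) with a mean of at least 5 CPM; the line is the spread that counting alone would give in a library of mean depth. T cell genes lie mostly above the line, from Cd2 at 1.43% to Fosl2 at 77.0%.

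A part of the order between libraries went with exon length. Protein-coding genes that were highest in WT1 had a median of 5306 exon bases, those highest in WT2 4681 and those highest in WT3 3541.5. With TMM scaling, the median log2 ratio of WT1 to WT3 was -0.13 among the 3140 genes with the shortest exons, 0.04 among the 3140 in the middle and 0.14 among the 3139 with the longest. The median exon length of the lists went with some of the orders given above. The receptor complex, with 6 of 8 members highest in WT3, had a median of 2542 exon bases, and the cytotoxic list, with 8 of 13 lowest in WT1, a median of 2108. Proximal signalling, with 17 of 23 highest in WT1, had 5600, and the naive and central memory list, with 13 of 17 lowest in WT3, had 5533. The cytokines, with the shorter median of 1847, were nevertheless highest in WT1 for 13 of 23, beside 52.4% of protein-coding genes; with TMM scaling the count was 10 beside 38.5%. Median exon lengths were 3250 bases for immediate early and 3430 for follicular helper genes. The part of exon length in these orders was not tested.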

How the data were processed

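RNA from sorted cells was read as poly(A)-selected, strand-marked libraries, 150 bases from each end, per the labels' protocols. The deposited table holds the authors' estimated counts for 34866 genes, with no scaling; 42.6% of the values above 0 have decimals. The submitters' processing notes name GRCm38 as the build. Which aligner and counter were used, and whether strand was used, is not given in the sources used here, so reads of overlapping or near-identical genes may be divided by an estimate.

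The 3 wild-type columns were rounded to whole numbers and scaled to the library total (CPM) and, per base of exon, to TPM. Symbols, exon lengths and coordinates came from GENCODE M21; 34582 identifiers matched with their version removed and 284 did not. Genes were ranked by mean TPM among 21782 protein-coding genes. Spread is the SD or CV over 3 libraries, for genes with a mean of at least 5 CPM; the counting CV is that of Poisson counts of the same mean. Values were computed with pandas 2.3.3 and Python 3.11.15. Only the CV and the order of genes by CV were tested on simulated counts.

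Alternatives were TMM scaling (edgeR 4.0.16), median-ratio size factors (DESeq2 1.42.0), a total without mitochondrial and antigen receptor genes, higher minimums, the length of the longest transcript, and leaving out each library. Named genes are a fixed set of T cell genes, the 5 highest and 2 most variable of each list, those under 1 CPM, the genes of the loci described and, over all genes, the 10 most variable with a mean of at least 10 CPM; further list members were added as context after their values were seen. The members and lists were chosen with earlier results of these data known. A few genes of the rule are not reported here. No p-value was computed.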

Additional observations from a re-analysis of the deposited data

How the results depend on the processing

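The count of genes at 1 CPM in all libraries, the counts of list members and the median spreads kept within 1.5 times or 1 SD of the reported values under the alternatives run, apart from those that follow. At a minimum of 5 CPM the cell cycle list kept 7 members in place of 13. Leaving out each library in turn put the median CV of the T cell genes between 13.8 and 17.0%. For all protein-coding genes it lay between 11.1 and 15.7%. These CVs rest on fewer libraries than the reported ones, so the values are not like for like. The part of any single library was not tested. Of 136 genes (the fixed set, the highest and most variable of each list, and the loci), no level moved by over 1 SD with TMM or median-ratio scaling, and 23 moved when mitochondrial and antigen receptor genes were left out of the total. With the length of the longest transcript, 65 of the 136 ranks moved by more than their spread. Over all 289 T cell genes that length moved 10 ranks by more than 1.5 times, among them Ptprc to rank 88 in place of 185, Cxcr3 to 1112 in place of 740, Lef1 to 3100 in place of 4972 and Nrp1 to 2446 in place of 4537, and it moved Grip2 to 21 in place of 32. Leaving out 1 library moved the mean of 22 of the 289 T cell genes by over 1.5 times, of which 4 had a mean of at least 5 CPM (Ebi3, Fosl2, Lag3 and Nr4a3, given in the text), and that of each of the 10 most variable of all genes; Grip2 averaged 6387 CPM without WT3 in place of 11272 and Ankra2 792 CPM without WT2 in place of 1726. All counts of library order, by library total as well as with TMM scaling, were added after the data were seen. No paired analysis was possible because 1 group was described and no result comes from a test. Depth limits the genes under 1 CPM, where a library holds fewer than 14.1 to 17.7 counts, and the 3 libraries limit every SD.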

Other observations

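The largest spreads of all protein-coding genes with a mean of at least 10 CPM lay outside the T cell lists. The largest was that of Clrn1, with a CV of 119%. Grip2, the highest of these genes by mean CPM, had a CV of 87.6%. Grip2, which encodes a scaffold protein known from synapses, had 1302, 11472 and 21042 CPM in WT1, WT2 and WT3, the last from 296736 counts. By mean TPM it ranked 32, above Jund and Tcf7. In WT1, however, its 410 TPM lay below the 1533 TPM of Jund and the 1351 TPM of Tcf7. Ankra2, an ankyrin repeat gene, had 333, 3593 and 1250 CPM. Clrn1, known from hair cells of the inner ear, had 7.75, 281 and 72.5 CPM, and Ugt2b35, a glucuronosyltransferase gene, 6.39, 151 and 45.7 CPM. WT1 was the lowest library for each of these 4.

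The same held for Tnfrsf11a (RANK), the receptor of the ligand that Tnfsf11 encodes, with 7.24, 80.1 and 29.5 CPM, while Tnfsf11 itself had 71.3, 57.2 and 91.3 CPM. It also held for Plin1, a lipid droplet coat gene, with 2.09, 13.1 and 44.3 CPM, and for Msrb3, a methionine sulfoxide reductase gene, with 3.62, 22.7 and 6.95 CPM. Of these 7 genes, Grip2 and Plin1 were highest in WT3 and the other 5 in WT2.

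WT1 was highest for 2 further genes of this kind. The identifier ENSMUSG00000116207.1, named Nnt (the transhydrogenase of the inner mitochondrial membrane), had 25.3, 0.415 and 6.95 CPM. The identifier ENSMUSG00000116275.1, named Zc3h11a like a second identifier of the table, had 171, 65.7 and 0 CPM. Reads shared between identifiers of the same symbol may have been divided by an estimate.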
